A study of Mus musculus with 6 samples.

Results

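The 6 genes described here are the ligands and receptors of the platelet-derived growth factor (PDGF) family: the ligand genes Pdgfa, Pdgfb, Pdgfc and Pdgfd and the receptor genes Pdgfra and Pdgfrb. They were taken by symbol from the count tables, where they are 6 of 25722 listed genes. All 6 were among the 13842 genes with enough counts to be tested. The study asked how retinoic acid (RA) alters bone marrow mesenchymal stromal cells (BMSCs), the adherent cells grown from mouse bone marrow. RNA of wild-type C57BL/6 BMSCs was sequenced in 6 libraries, 3 from cells given the solvent DMSO (control) and 3 from cells given all-trans RA (RA). The labels give RA at 1 µM and a treatment of 48 h for both groups, whereas the study's methods give a lower dose and a shorter time. Both groups were grown in 5% O2 and 5% CO2 with 20% serum and 10 µM ROCK inhibitor, and neither received a cytokine.

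PDGF ligands are secreted dimers that bind a pair of receptor tyrosine kinases, PDGFRα and PDGFRβ, and cause them to dimerise and signal. The A, B and C chains bind PDGFRα, whereas the B and D chains bind PDGFRβ. PDGF-A and PDGF-B are cut by proprotein convertases inside the cell, whereas PDGF-C and PDGF-D are released with a CUB domain that must be removed by proteases outside it. In bone marrow, the receptors mark stromal and perivascular cells, and macrophages and megakaryocytes are known sources of PDGF-B.

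The libraries held between 14737636 and 18511905 counts, so that 3 counts corresponded to 0.16 to 0.21 CPM, the counts scaled to a common library total. The labels speak of 2 biological replicates, and they do not say whether the 3 libraries of a group came from separate cultures. The study's legends speak of independent experiments in general, without naming the libraries. The p-values set the group difference against the spread between these libraries, which the tests treat as independent. They are not read beyond these libraries. Cyp26b1, which encodes an RA-degrading enzyme that RA itself induces, was at 5.20 ± 0.67 CPM in controls and 106.8 ± 18.4 CPM under RA (SD, n = 3 each), a log2 fold change of 4.35 with an adjusted p of 0.00207 by edgeR's quasi-likelihood test with Benjamini-Hochberg adjustment. The first principal component of the genes outside the lists used here carried 57.6% of the variance and split the libraries across the treatment. Control 2, RA 1 and RA 2 lay on one side (library set 1), and control 1, control 3 and RA 3 on the other (library set 2). The labels name no batch for these sets. Of 8 retinoid response genes tested, edgeR called 1 (Cyp26b1), and 6 with library set as a covariate, all higher under RA, where these fits called 0.0433% and 1.74% of all genes. The label of mesenchymal stromal cells was checked against marker genes: 18 of 18 macrophage markers and 17 of 20 stromal markers had enough counts to be tested, while Thy1 and Nt5e, which define cultured stromal cells, did not. Adgre1, which encodes the macrophage marker F4/80, was at 5759 ± 659.5 CPM in controls and 4905 ± 734.2 CPM under RA. Col1a1, a collagen chain of stromal cells, was at 1053 ± 515.6 and 703 ± 378.3 CPM. In such a mixed RNA, fewer cells of a type and less RNA per cell cannot be told apart.

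Upstream sequences are shown for 3 members. Pdgfra and Pdgfd had similar patterns across the libraries, and Pdgfc had the opposite order between the library sets. Each sequence covers the 250 bases before the RefSeq transcription start in GRCm38.p6, on the forward strand, from 5′ to 3′, and holds no annotated exon base. Capitals mark a match to one of the motifs searched. Pdgfra at chr5:75152001-75152250 (+) and 54.4% GC, with no match:
Pdgfra: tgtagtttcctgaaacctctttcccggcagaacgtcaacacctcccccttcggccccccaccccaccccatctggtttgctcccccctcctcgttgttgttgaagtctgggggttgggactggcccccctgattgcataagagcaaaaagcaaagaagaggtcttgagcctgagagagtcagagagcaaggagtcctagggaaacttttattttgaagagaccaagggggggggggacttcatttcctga
Pdgfd at chr9:6168236-6168485 (+) and 53.6% GC, with a TATAAA match from 160 to 155 bases before the start:
Pdgfd: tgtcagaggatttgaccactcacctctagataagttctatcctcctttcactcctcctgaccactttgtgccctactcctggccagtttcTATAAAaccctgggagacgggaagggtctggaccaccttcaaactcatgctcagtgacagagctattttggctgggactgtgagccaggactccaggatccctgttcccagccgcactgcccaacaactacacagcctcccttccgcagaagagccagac
Pdgfc at chr3:81036166-81036415 (+) and 50.8% GC, with a CArG box, the element bound by serum response factor, from 17 to 8 bases before the start:
Pdgfc: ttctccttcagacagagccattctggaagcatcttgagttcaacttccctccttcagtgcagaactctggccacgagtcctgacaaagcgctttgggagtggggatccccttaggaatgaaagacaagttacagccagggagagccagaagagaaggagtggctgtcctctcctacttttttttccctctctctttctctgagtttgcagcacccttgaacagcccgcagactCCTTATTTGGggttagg
The motifs were the TATA box TATAAA, the GC box GGGCGG, the retinoid receptor half-site AGGTCA and the CArG box, each searched on both strands. Of 32851 windows of the same length, 12.4% held TATAAA, 32.7% held GGGCGG, 14.0% held AGGTCA and 1.47% held a CArG box. The half-site AGGTCA was matched in 0 of the 5 windows of the 4 members found in the RefSeq table (Pdgfa has 2 starts there). Pdgfb and Pdgfrb had no window in the table. The matches describe letters in these windows and were not tested against binding.

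Among the ligands, Pdgfb had the clearest separation of the groups, and it lay lower under RA. Pdgfb (ENSMUSG00000000489, GRCm38 chr15:79995874-80014977, minus strand) encodes the B chain, which recruits pericytes and smooth muscle cells that carry PDGFRβ. Its counts were 765, 912 and 650 in controls 1 to 3 and 574, 383 and 593 in RA 1 to 3. After scaling to CPM by the TMM method, it was at 53.6, 48.5 and 44.7 CPM in the controls and 31.9, 24.3 and 40.5 CPM under RA. Every RA library lay below every control, although RA 3 and control 3 were close to each other. Of all genes tested, 6.87% had every RA library below every control. The means were 48.9 ± 4.46 and 32.2 ± 8.09 CPM (SD, n = 3 each), a level 1.52-fold higher in controls. The log2 fold change was -0.60 (SE 0.20, 95% confidence interval -1.08 to -0.12), with an adjusted p of 0.795 over all genes tested by edgeR's quasi-likelihood test with Benjamini-Hochberg adjustment. Before adjustment edgeR gave p = 0.0209, and the exact two-sided permutation test over the 20 ways of splitting the 6 libraries gave p = 0.1, the smallest value it allows. Within set 1 the difference was -0.80 and within set 2 it was -0.27 on the log2 scale, so RA was on the lower side in both, as it was for 35% of all genes tested.

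Pdgfd had the opposite direction. Pdgfd (ENSMUSG00000032006, chr9:6168584-6378850, plus strand) encodes the D chain, a ligand of PDGFRβ that needs proteolysis to become active. It had 71, 160 and 77 counts in the controls and 235, 210 and 109 under RA, or 4.97, 8.51 and 5.29 CPM against 13.1, 13.3 and 7.44 CPM. RA 1 and RA 2 exceeded every control, and RA 3 lay below control 2, so the groups overlapped in 1 RA library. The means were 6.26 ± 1.96 and 11.3 ± 3.32 CPM, 1.80-fold higher under RA. The log2 fold change was 0.84 (SE 0.32, 95% confidence interval 0.08 to 1.61), with p = 0.0348 before adjustment and an adjusted p of 0.795 in edgeR, and the exact permutation p was 0.2. RA was higher within both sets, by 0.62 in set 1 and by 0.52 in set 2 on the log2 scale, as it was in both sets for 30.9% of all genes tested.

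Pdgfa and Pdgfc gave no separation of the groups. Pdgfa (ENSMUSG00000025856, chr5:138976014-138997370, minus strand) encodes the A chain, a ligand of PDGFRα. It was at 14.6, 23.7 and 13.1 CPM in the controls (208, 445 and 190 counts) and at 23.2, 18.1 and 11.9 CPM under RA (417, 286 and 175 counts). Control 2 was the highest library and RA 3 the lowest, and the group means were 17.1 ± 5.74 and 17.8 ± 5.63 CPM. The log2 fold change of Pdgfa was 0.05 (SE 0.32, 95% confidence interval -0.71 to 0.82), with an adjusted p of 0.971 in edgeR and an exact permutation p of 1.0. Within each set, RA was lower by the same amount, with differences of -0.21 and -0.21 on the log2 scale. Pdgfa shares 813 of its 3119 annotated exon bases with the antisense gene 6330403L08Rik, and the sources used here do not say whether strand was kept, so reads of this stretch cannot be told apart. 6330403L08Rik itself was at 16.2 ± 1.04 CPM in controls and 13.1 ± 0.642 CPM under RA.

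Pdgfc (ENSMUSG00000028019, chr3:81036416-81214040, plus strand) encodes the C chain, a ligand of PDGFRα that needs proteolysis outside the cell. It was at 22.1, 13.1 and 27.7 CPM in the controls (315, 246 and 403 counts) and at 15.1, 12.2 and 30.6 CPM under RA (271, 192 and 448 counts). The 3 libraries of set 1 were the 3 lowest, whichever group they belonged to. The means were 21.0 ± 7.38 and 19.3 ± 9.89 CPM, and the log2 fold change was -0.12 (SE 0.42, 95% confidence interval -1.11 to 0.87), with an adjusted p of 0.947 in edgeR and an exact permutation p of 0.9. Within the sets, RA was higher by 0.05 in set 1 and by 0.30 in set 2 on the log2 scale, a direction opposite to the one over all 6 libraries. Of the genes whose span overlaps Pdgfb, Pdgfc, Pdgfd or Pdgfra, those in the count tables had between 0 and 5 counts in any library.

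**Figure D1:**
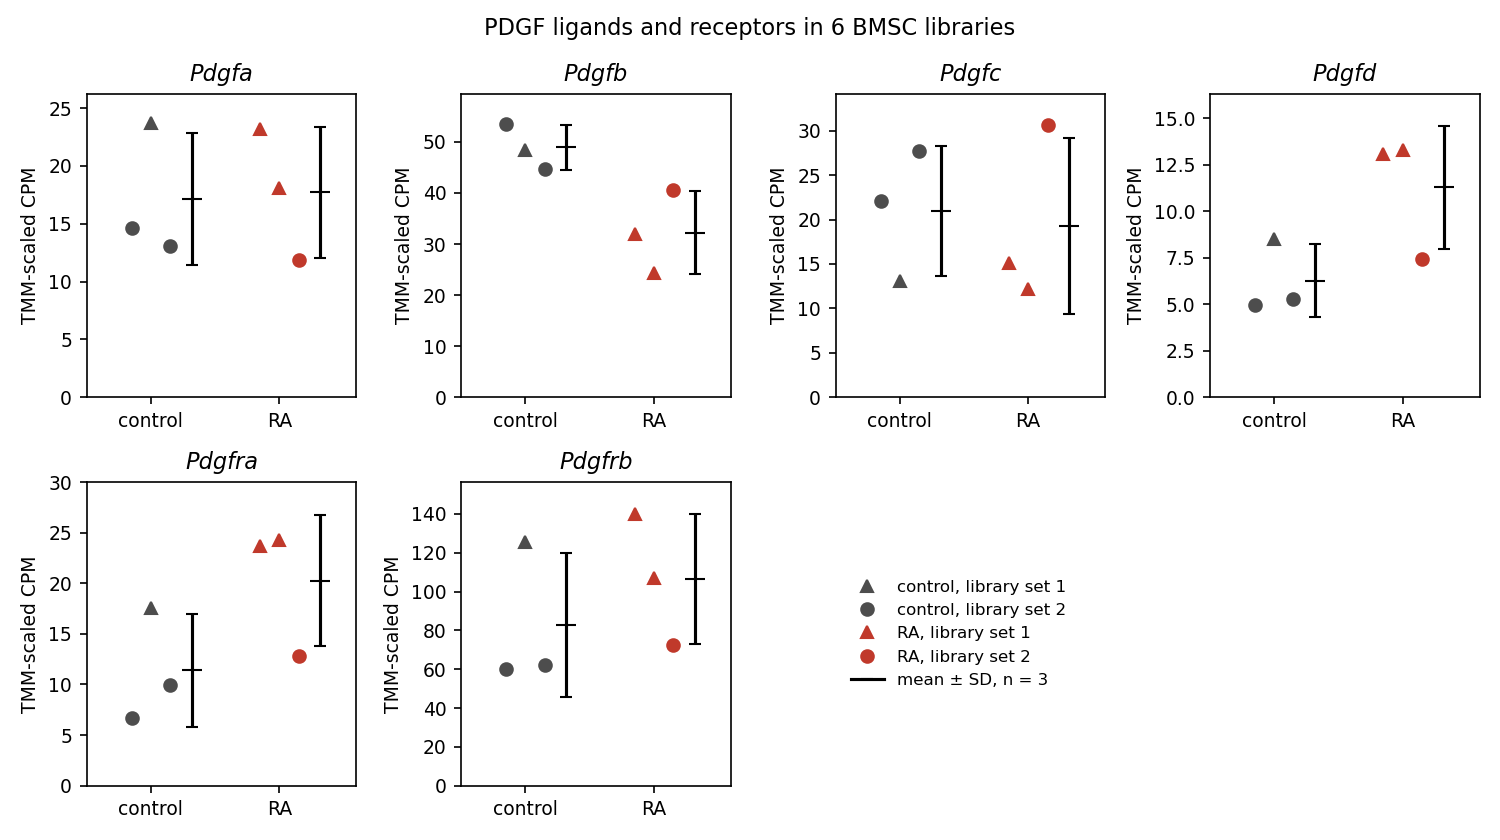
TMM-scaled CPM of each PDGF gene in each library, with controls in grey and RA in red, set 1 as triangles, set 2 as circles, and bars for the mean ± SD of 3 libraries. Pdgfb is the gene whose RA libraries (24.3 to 40.5 CPM) all lie below the controls (44.7 to 53.6 CPM), and in Pdgfa, Pdgfc, Pdgfd, Pdgfra and Pdgfrb the triangles and circles do not overlap.

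Of the receptors, Pdgfra showed the larger difference. Pdgfra (ENSMUSG00000029231, chr5:75152292-75198215, plus strand) encodes PDGFRα, a marker of marrow stromal progenitors. Its counts were 95, 331 and 144 in the controls and 426, 384 and 187 under RA, which gave 6.65, 17.6 and 9.90 CPM against 23.7, 24.3 and 12.8 CPM. RA 1 and RA 2 exceeded every control, and RA 3 exceeded controls 1 and 3 but not control 2. The means were 11.4 ± 5.62 and 20.3 ± 6.51 CPM, 1.77-fold higher under RA. The log2 fold change of Pdgfra was 0.83 (SE 0.41, 95% confidence interval -0.15 to 1.80), with p = 0.0849 before adjustment, an adjusted p of 0.795 in edgeR and an exact permutation p of 0.2. RA was higher within both sets, by 0.45 in set 1 and by 0.64 in set 2 on the log2 scale, against the same 30.9% of all genes.

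Pdgfrb (ENSMUSG00000024620, chr18:61045150-61085061, plus strand) encodes PDGFRβ, the receptor of pericytes and smooth muscle cells for the B and D chains. It was at 60.3, 125.5 and 62.4 CPM in the controls (861, 2360 and 908 counts) and at 139.9, 107.1 and 72.7 CPM under RA (2516, 1689 and 1065 counts). The groups overlapped, since control 2 exceeded RA 2 and RA 3. The means were 82.7 ± 37.0 and 107 ± 33.6 CPM, and the log2 fold change was 0.36 (SE 0.36, 95% confidence interval -0.49 to 1.22), with an adjusted p of 0.818 in edgeR and an exact permutation p of 0.4. The differences within the sets, -0.04 in set 1 and 0.24 in set 2 on the log2 scale, had opposite signs.

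Over the 6 genes, 0 were called at an adjusted p under 0.05, where 0.0433% of all genes tested were called (6 of 13842). Before adjustment, 2 of the 6 had a p under 0.05, Pdgfb in the lower and Pdgfd in the higher direction, where 5.25% of all genes did. In 0 of the 6 did every RA library lie above every control, as in 5.71% of all genes. DESeq2 called 0 of the 6 as well, where it called 0.487% of the genes to which it gave an adjusted p (123 of 25243). The edgeR test with library set as a covariate called 1.74% of all genes and 0 of the 6. Its estimates had narrower intervals: -0.53 (-0.91 to -0.16, adjusted p 0.2) for Pdgfb, 0.59 (0.27 to 0.91, adjusted p 0.101) for Pdgfd and 0.53 (0.14 to 0.92, adjusted p 0.214) for Pdgfra. The estimate for Pdgfrb was 0.11 (-0.18 to 0.39). The estimates of Pdgfa and Pdgfc crossed 0, to -0.20 (-0.53 to 0.13) and 0.18 (-0.17 to 0.54), with intervals that include 0. The library sets were drawn from these same 6 libraries, so a smaller residual spread is in part built into this fit. Its intervals and calls, for these and other genes, may therefore be optimistic.

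**Figure D2:**
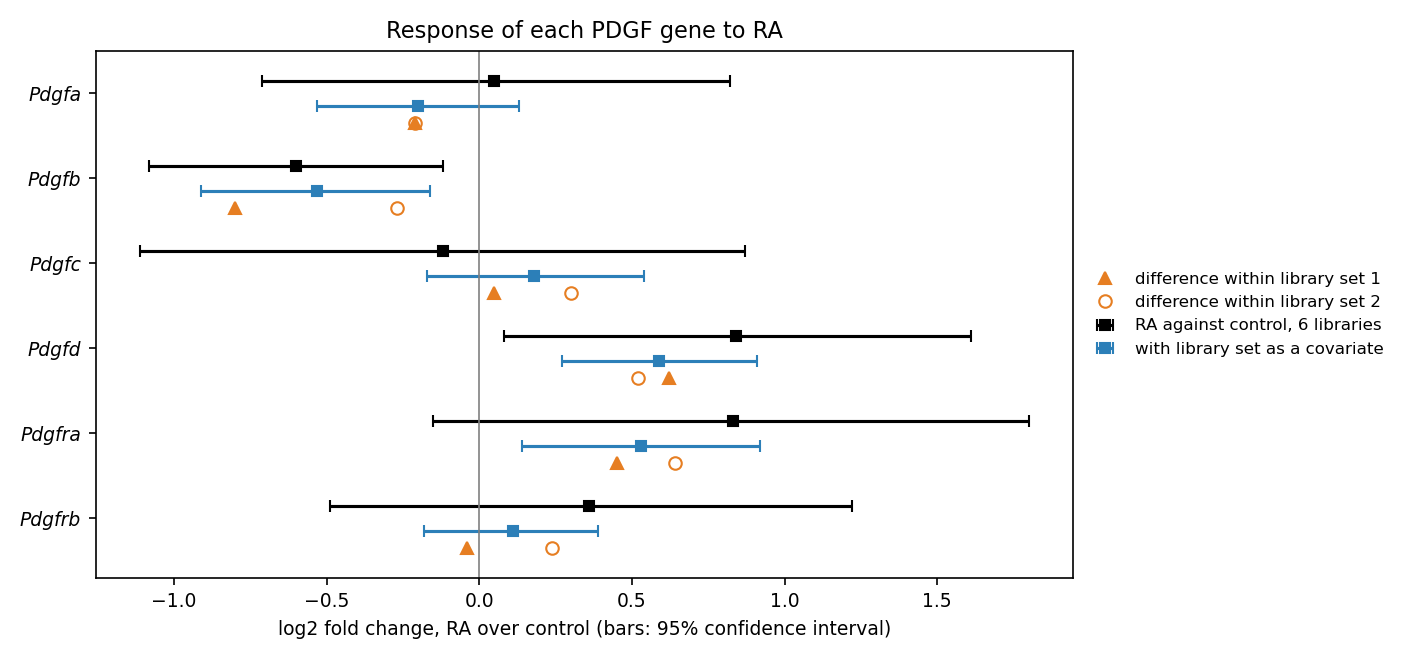
Log2 fold change of RA over control for each gene, over all 6 libraries (black) and with library set as a covariate (blue), each with its 95% confidence interval, and the difference within each set (orange). Pdgfb lies to the left of 0 and Pdgfd and Pdgfra to the right in all 4 estimates, while the signs of Pdgfa, Pdgfc and Pdgfrb differ between estimates.

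The library sets separated more of the members than RA did. In 5 of the 6 genes, the libraries of one set did not overlap with those of the other, and this held for 47.7% of all genes tested. Pdgfra was at 17.6 to 24.3 CPM in set 1 and 6.65 to 12.8 CPM in set 2, and Pdgfrb at 107.1 to 139.9 against 60.3 to 72.7 CPM. Pdgfd and Pdgfa were also higher in set 1, and Pdgfc was lower there, at 12.2 to 15.1 against 22.1 to 30.6 CPM. On the log2 scale, set 1 exceeded set 2 by 1.19 for Pdgfra, 0.96 for Pdgfd, 0.93 for Pdgfrb and 0.70 for Pdgfa, while the difference was -0.98 for Pdgfc. In Pdgfb the sets overlapped, with 24.3 to 48.5 CPM in set 1 and 40.5 to 53.6 CPM in set 2.

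Summed markers of the cell types that make or receive PDGF also lay apart between the sets. The summed stromal markers were at 5936 to 10330 CPM in set 1 and 3734 to 5739 CPM in set 2, and 8 of the 17 tested did not overlap between the sets, all of them higher in set 1, a share near the 47.7% of all genes without overlap. The summed smooth muscle and pericyte markers were at 887.6 to 1301 CPM in set 1 and 439.3 to 595 CPM in set 2. The summed macrophage markers were at 22310 to 23380 CPM in set 1 and 24410 to 26670 CPM in set 2. Of the 18 macrophage markers, 14 were lower in every library of set 1 than in every library of set 2 and 2 were higher, among them Lyz2, which encodes lysozyme and is named for its values, with means of 9228 CPM in set 1 and 6083 CPM in set 2. Between the groups these sums overlapped: macrophage markers were at 23380 to 26670 CPM in controls and 22310 to 25410 CPM under RA, and stromal markers at 5293 to 10330 and 3734 to 7603 CPM. Within each set, however, the stromal sum was lower under RA. It was 10330 CPM in control 2 against 5936 and 7603 CPM in the RA libraries of set 1, and 5293 and 5739 CPM in the controls of set 2 against 3734 CPM in RA 3. Single stromal markers went either way. Lepr, Dcn and Cxcl12 (named for its values) were higher in every RA library than in every control, and Col5a1 and Ly6a were lower. Of all genes tested, 5.71% were higher and 6.87% lower in this way. In the main edgeR test 0 of the 17 stromal markers were called, where 0.0433% of all genes were. Before adjustment, 2 were lower and 3 higher at a p under 0.05, where 5.25% of all genes had such a p. With library set as a covariate, edgeR called 6 of the 17 lower under RA and 1 higher, where it called 1.74% of all genes. This fit called 0 of the 18 macrophage markers. Of the 17 log2 fold changes, 12 lay below 0 and 5 above in the main fit (median -0.16), and 13 and 4 with that covariate. Without control 2, the only control of set 1, 6 lay below 0 and 11 above, with a median of 0.23. The same counts held without RA 3, with a median of 0.06. Megakaryocyte and platelet markers summed to between 14.9 and 50.0 CPM, mostly Pf4, and Itga2b, which defines megakaryocytes, had 4 to 10 counts in a library. Endothelial markers summed to between 9.57 and 23.2 CPM, and neutrophil, lymphocyte and erythroid markers to at most 5.39 CPM each. Cspg4, which encodes the pericyte marker NG2, had 3 to 15 counts in a library. The part of these cell types in the values of the PDGF genes was not tested.

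Levels of different genes were compared as RPKM, the scaled counts per kilobase of annotated exon. Pdgfrb had the highest mean RPKM over the 6 libraries (17.3), followed by Pdgfb (9.75), Pdgfa (5.59), Pdgfc (3.95), Pdgfd (2.78) and Pdgfra (1.58). Pdgfrb stood at percentile 79.2 of all genes tested and Pdgfra at percentile 27.0. In the controls, Pdgfrb (11.0 to 22.9 RPKM) and Pdgfb (10.7 to 12.9 RPKM) overlapped, and control 1 had more Pdgfb than Pdgfrb. Under RA, Pdgfrb lay at 13.3 to 25.5 RPKM and Pdgfb at 5.84 to 9.72 RPKM, a separation that depended on the length used. Per kilobase of the longest transcript, RA 3 had 13.7 RPKM of Pdgfb and 13.4 of Pdgfrb, control 3 had 15.2 and 11.5, and the control means were 16.6 for Pdgfb and 15.3 for Pdgfrb, each the reverse of the order by annotated exons. With that length Pdgfa also lay above Pdgfb in RA 1 (11.3 and 10.8 RPKM) and RA 2 (8.80 and 8.25 RPKM). Neighbours further down the order overlapped in at least 1 of the groups, so Pdgfb, Pdgfa, Pdgfc, Pdgfd and Pdgfra were not all separated beyond their spread. Within each of the 6 libraries, however, Pdgfd had a higher RPKM than Pdgfra.

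**Figure D3:**
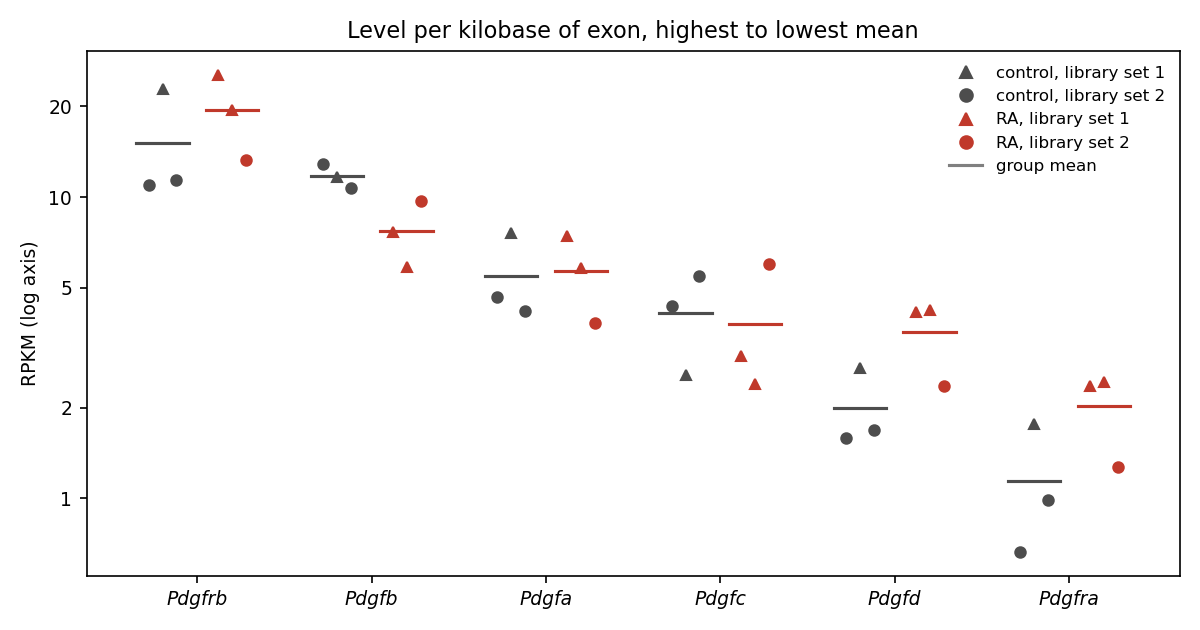
RPKM of each gene on a log axis, ordered from the highest to the lowest mean, with controls in grey, RA in red, set 1 as triangles, set 2 as circles and lines for the group means. The genes run from Pdgfrb, with a mean of 15.1 RPKM in controls and 19.4 under RA, to Pdgfra, with 1.14 and 2.02.

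The makeup of the ligand RNA was then compared. Pdgfb took 54.9%, 47.6% and 48.6% of the summed ligand RPKM in the controls and 34.5%, 32.0% and 44.3% under RA, means of 50.4 ± 3.96% and 36.9 ± 6.5%. Its share was lower in every RA library than in every control. Pdgfd took 6.73%, 11.0% and 7.63% in the controls and 18.6%, 23.1% and 10.8% under RA, and the groups overlapped because RA 3 was just below control 2. The ratio of Pdgfb to its receptor gene Pdgfrb in RPKM was 1.17, 0.511 and 0.939 in the controls and 0.301, 0.299 and 0.731 under RA. The lowest control, control 2, lay below RA 3, and within each set RA was lower. The summed receptor RPKM divided by the summed ligand RPKM was 0.497, 1.0 and 0.563 in the controls and 1.25, 1.2 and 0.665 under RA. This balance did not overlap between the sets (1.0 to 1.25 in set 1, 0.497 to 0.665 in set 2), while it did overlap between the groups. Its side of 1 depended on the length: per kilobase of the longest transcript it was 0.364 to 0.746 in controls and 0.5 to 0.958 under RA, below 1 in all 6 libraries. Pdgfrb exceeded Pdgfra in RPKM in every library, by 11.5- to 16.6-fold in controls and by 8.02- to 10.8-fold under RA. These ratios rest on the exon lengths of the annotation and were not tested.

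**Figure D4:**
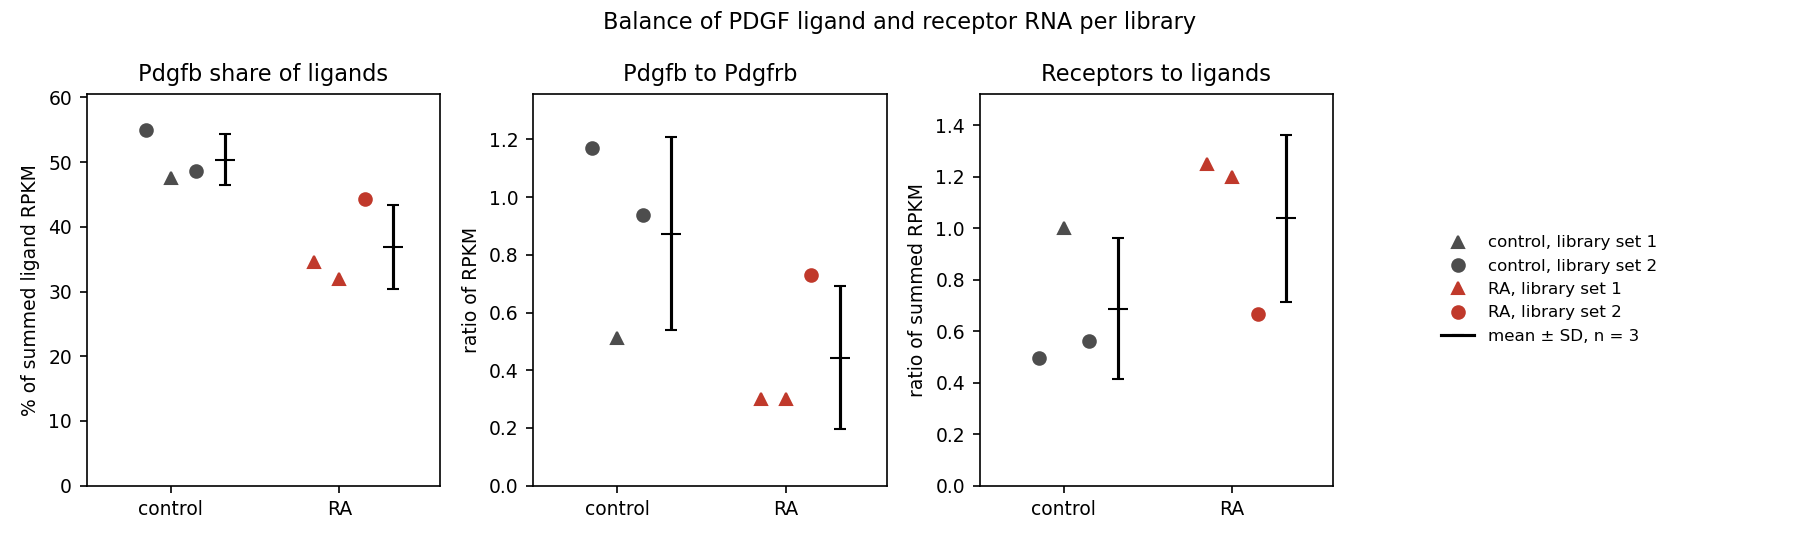
Share of Pdgfb in the summed ligand RPKM (%), ratio of Pdgfb to Pdgfrb, and ratio of summed receptor to summed ligand RPKM in each library, with bars for the mean ± SD of 3 libraries. The Pdgfb share is lower under RA (32.0% to 44.3%) than in the controls (47.6% to 54.9%), whereas the receptor to ligand ratio follows the triangles (set 1) and circles (set 2).

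The patterns of the members across the 6 libraries were compared by the root mean square (RMS) difference of log2 CPM after centring each gene on its own mean, a description without a test. Pdgfd and Pdgfra were the closest pair of members (RMS 0.193), and Pdgfra ranked 67th among the genes nearest to Pdgfd. Pdgfa and Pdgfrb followed (0.204), although Pdgfrb ranked only 759th among the genes nearest to Pdgfa. The receptors differed from each other by 0.313, and Pdgfrb ranked 230th among the genes nearest to Pdgfra. Pdgfc was far from both receptors, at 1.10 from Pdgfra and 0.957 from Pdgfrb. Among 13011 genes with a mean of at least 1 CPM, the nearest to Pdgfra were Adamts5, which encodes an aggrecan-cleaving protease (0.101), and Gnai1, a G protein subunit (0.122). The nearest to Pdgfrb were Fhl1 (0.0669) and Tmem119 (0.0685), and to Pdgfd Pgm2l1 (0.0688) and Akap2 (0.0821). The nearest to Pdgfb were Gm4673 (0.039) and Eid2 (0.0516), and to Pdgfa Hnrnpab (0.0359) and Ifrd2 (0.045).

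The remaining genes of the pathway were described by role, and 80 of the 88 on the lists could be tested. In the edgeR test 0 of them were called, with 3 at a p under 0.05 before adjustment, a share no larger than the 5.25% over all genes tested: Dcn higher, and Src and Kitl lower (Kitl and Dcn are named because of these values). DESeq2 called 0 as well, with 0.487% of all genes called, and gave Cxcl1 no adjusted p. The median log2 fold change over the 80 was -0.14, with -0.02 over all genes tested. Without control 2 it was -0.03, with 0.01 over all genes.

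Upstream of the receptors, 13 genes that cut or capture PDGF had a median log2 fold change of -0.18, with 5 above and 8 below 0. They ranged from Pcsk6, a proprotein convertase (3.27 to 2.06 CPM, log2 fold change -0.66), to Plat, the protease that activates PDGF-C (2.12 to 3.44 CPM, 0.68). Dcn, the proteoglycan decorin, was at 3.04 ± 0.34 CPM in controls and 4.35 ± 0.583 CPM under RA, with p = 0.049 before adjustment in edgeR and 0.1 in the exact permutation test. With library set as a covariate, 2 of the 13 were called, both lower under RA, where 1.74% of all genes were called. Sparc, a matrix protein that binds PDGF chains, gave -0.52 with an adjusted p of 0.0435, and Thbs1, thrombospondin, gave -0.74 with an adjusted p of 0.0167. Without that covariate these genes gave -0.18 and -0.45, with adjusted p of 0.919 and 0.803 in edgeR. Their RA and control libraries overlapped over the 6 libraries. Within set 1 and set 2 the log2 differences were -0.53 and -0.52 for Sparc and -0.74 and -0.75 for Thbs1. Without control 2, the only control of set 1, the values were 0.30 for Sparc and -0.06 for Thbs1. Sparc is also 1 of the 6 stromal markers called lower in that fit, and the summed stromal markers were lower under RA within each set. Their part in these values was not tested.

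Downstream of the receptors, 26 adaptors and kinases had a median of -0.13, with 9 above and 17 below 0. The lowest was Src, a kinase recruited to activated receptors, at 42.9, 33.7 and 38.5 CPM in controls and 25.2, 19.0 and 31.7 CPM under RA (log2 fold change -0.60, p = 0.0257 before adjustment and adjusted p 0.795 in edgeR, exact permutation p 0.1). The highest was the adaptor Nck1, at 24.8 ± 2.43 and 29.2 ± 1.96 CPM. The 18 brakes on receptor signalling had a median of 0.00, with 9 on each side. They reached from Slc9a3r2, a scaffold protein (-0.37, and -0.16 without control 2), to Errfi1, a feedback inhibitor of growth factor receptors. Errfi1 was at 47.3, 128.9 and 50.2 CPM in controls and 191.2, 144.5 and 89.4 CPM under RA (0.91, adjusted p 0.795 in edgeR). It was higher in set 1, and the value without control 2 was 1.55.

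Among 12 early genes that PDGF is known to induce, 10 lay below 0 and 2 above, with a median of -0.28, and of -0.50 with library set as a covariate. The direction differed between fits. With library set as a covariate, 12 of the 12 lay below 0. Without control 2, the only control of set 1, 8 lay above 0 and 4 below, with a median of 0.32. Cxcl1, a chemokine, was lowest at -0.98, but 1 library, control 2 with 59.5 CPM, lay far above the others (4.64 to 16.7 CPM), and the value without it was 1.20. Myc, a growth regulator, was highest at 0.15. In this list 7 of the 12 were higher in every library of set 1 than in every library of set 2 and 1 was lower, where 47.7% of all genes did not overlap between the sets. The 6 VEGF relatives and receptors, structurally akin to the PDGFs, had a median of 0.10, from Vegfd (1.44 to 0.624 CPM) to Pgf, placental growth factor (1.62 to 2.35 CPM).

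The class III receptor tyrosine kinases related to the PDGF receptors, with their ligands, had the lowest median, -0.62 over 5 genes, 4 of which were ligands. Csf1, the growth factor of macrophages, was at 117.4, 311.3 and 123.2 CPM in controls and 147.9, 120.2 and 54.9 CPM under RA. It gave -0.77 with an adjusted p of 0.795 in edgeR, and -1.18 with an adjusted p of 0.00274 with library set as a covariate. Its groups overlapped over all 6 libraries, while RA was lower within each set, with log2 differences of -1.22 and -1.13, as were the summed stromal markers. Without control 2, the highest library, the value was -0.15. Il34, the other CSF1 receptor ligand, gave -0.89 and, without control 2, -0.40. Kitl, the ligand of KIT, was at 11.8 ± 1.24 and 7.65 ± 0.514 CPM (log2 fold change -0.62, p = 0.00775 before adjustment and adjusted p 0.6 in edgeR, exact permutation p 0.1). The receptor gene Csf1r was at 1115 ± 176.3 and 1163 ± 208.7 CPM (0.06).

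**Figure D5:**
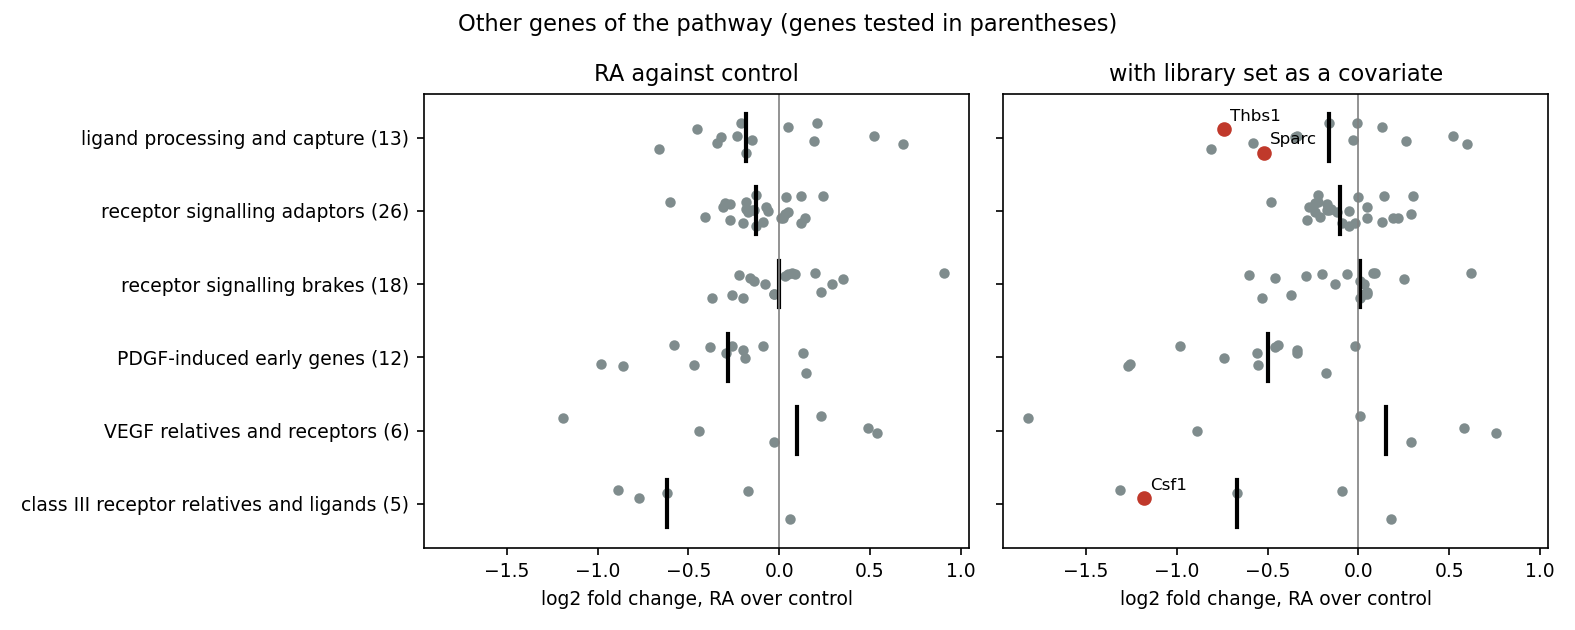
Log2 fold change of RA over control for 80 pathway genes in 6 lists, over all 6 libraries (left) and with library set as a covariate (right). Each point is a gene, black bars are list medians, and red points mark the 3 genes called on the right (Sparc, Thbs1 and Csf1), while 0 are called on the left.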

How the data were processed

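The authors deposited unnormalized counts of reads for each gene in separate tables, 1 for each library. The submitters' processing notes name Bowtie2 2.2.3 and the build mm10, and the counting program and the handling of strand are not given in the sources used here. All 25722 gene identifiers matched the GENCODE annotation M21 of GRCm38, and 24 names turned into dates were replaced. The members and lists were chosen with earlier results of these data known.

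Counts were analysed in R 4.3.3 with edgeR 4.0.16 (TMM scaling, filterByExpr, quasi-likelihood test of 3 RA against 3 control libraries, Benjamini-Hochberg adjustment over 13842 genes, called at an adjusted p under 0.05). The F statistic gave the standard errors. A prior count of 2 was added for log2 CPM. Library sets were taken from the leading principal component of 1000 variable genes, those outside the lists with the highest variance. Differences within a set compare mean log2 CPM. Totals of 14737636 to 18511905 counts limit counting error, which leaves out PCR copies. Chi-square per degree of freedom was 4.88 between controls 1 and 3 and 30.6 to 91.8 between the other libraries of a group, so all 6 were kept. The labels do not say whether controls 1 and 3 came from separate cultures. Scripts were tested on simulated data. Alternatives were DESeq2 1.42.0, other scalings and filters, the replicate block, library set as a covariate, each library left out and transcript length. Named genes were the members, list genes called in either edgeR fit, the lowest and highest gene of each pathway list, defining markers, Cyp26b1, overlapping genes and the 2 nearest genes in pattern (mean of at least 1 CPM). For the marker and retinoid lists, the rule's called, lowest and highest genes are mostly given as counts. The genes nearest in pattern to Pdgfc are not reported here.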

Additional observations from a re-analysis of the deposited data

How the results depend on the processing

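The count of members called was 0 under all 13 alternatives, and the smallest adjusted p of any member was 0.101 (Pdgfd with library set as a covariate). Over the alternatives, Pdgfb ranged from -0.80 to -0.44, Pdgfd from 0.59 to 1.15, Pdgfra from 0.53 to 1.31 and Pdgfrb from 0.11 to 0.81 on the log2 scale, all without a change of direction. Their p was under 0.05 before adjustment in 11, 9, 5 and 1 of the 13. Pdgfa reversed to -0.20 and Pdgfc to 0.18 with library set as a covariate, and without 1 library they ran from -0.16 to 0.38 and from -0.62 to 0.13. The cause was not tested.

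Over all genes, edgeR called 6 genes, 20 without the filter on low counts, 241 with library set as a covariate and 123 with DESeq2, and 0 to 6 without 1 library (0 without control 1, 2 without control 2, and 1 each without control 3, RA 1 or RA 2). Of the pathway lists, 3 genes were called with library set as a covariate. Without 1 library, Csf1r ran from -0.09 to 0.18, Cxcl1 from -1.45 to 1.20, Myc from -0.08 to 0.75, Sparc from -0.40 to 0.30, Csf1 from -1.05 to -0.15, Thbs1 from -0.66 to -0.06, Il34 from -1.29 to -0.40, Errfi1 from 0.65 to 1.55, Plat from 0.47 to 1.18, Slc9a3r2 from -0.54 to -0.16 (the highest values of these genes other than Csf1r were those without control 2, as were 1.31 for Pdgfra and 0.81 for Pdgfrb), Vegfd from -2.02 (without RA 2) to -0.64 (without RA 3) and Pgf from 0.23 (without RA 3) to 0.72, and Myc was at -0.18 with library set as a covariate. Without control 2, list medians moved to -0.02 for ligand processing and capture, 0.28 for the brakes, 0.32 for the early genes, 0.32 for the VEGF relatives and -0.23 for the class III relatives. With the longest transcript as the length, mean RPKM moved to 8.46 for Pdgfa, 13.8 for Pdgfb, 5.71 for Pdgfc and 2.32 for Pdgfra, with the order of the means over all 6 libraries kept. The order of Pdgfb and Pdgfrb reversed in control 3, in RA 3 and among the control means, and that of Pdgfa and Pdgfb in RA 1 and RA 2. All 12 nearest genes in pattern were kept with scaling by library size.

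The replicate numbers were not taken to pair the libraries, since the sources used here do not say what they pair. Same-numbered libraries correlated at -0.51, 0.343 and 0.572 in their deviations from the group means, and differently numbered ones at -0.0934 on average. Control 1 and RA 1 lie in different library sets, while the other same-numbered libraries share a set, so these values cannot decide the pairing. The replicate block gave 4 called genes, 0 of them members, and -0.63 for Pdgfb, 0.84 for Pdgfd and 0.87 for Pdgfra. With 3 libraries a group that split into sets across the treatment, the intervals of Pdgfa, Pdgfc, Pdgfra and Pdgfrb over all 6 libraries leave differences of either sign possible.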
